A study of Bombyx mori with 9 samples.

Results

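Silk glands of the silkworm strain XH were compared with those of strain A798. In the series A798 has the heaviest glands and XH the intermediate ones. Both are described as pure strains of Bombyx mori, the domestic silkworm, and neither carries a transgene or had a treatment in the labels. Larvae of both strains were kept under the same feeding regime and dissected on day 5 of the fifth instar, the last larval stage, when the gland fills with silk before spinning. Total RNA of each gland sample was extracted with TRIzol, and there were 3 libraries per strain. Expression was deposited as FPKM, fragment counts scaled by transcript length and by how many fragments of the library were mapped. Features with at least 1 FPKM in at least 3 of these 6 libraries were kept, which left 4215 of 15745, of which 4198 are genes with BGIBMGA identifiers and 17 are models of structural RNAs. Only 551 of the 4215 carry a name or a description in the deposited table, so the gene groups described here cover a small part of the transcriptome. The third strain, A306, has the lightest glands and is quoted beside some genes. The labels do not say that the libraries of a strain are from separate animals. The p-values therefore gauge only the spread among these libraries, and some of it may be technical.

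The silk gland is a paired tube of giant polyploid cells that copy their DNA without dividing. Its posterior part secretes fibroin, a complex of heavy chain, light chain and P25 (fibrohexamerin), and its middle part adds sericin glue and stores the fluid silk. At this stage the cells turn amino acids taken from the blood, chiefly glycine, alanine and serine, into silk, and translation and secretion dominate what they transcribe. The larval fat body makes the storage proteins and 30K lipoproteins of the blood, and blood cells, muscle, tracheae and duct lining can travel with a dissected gland.

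Each sample lists a pair of gland weights, whose meaning the labels do not give. The means of the pair were 1.32, 1.27 and 1.26 g in the A798 samples and 0.974, 0.965 and 0.982 g in the XH samples. The strains did not overlap. The mean of XH, 0.974 ± 0.00850 g (SD, n = 3), was 76.0% of that of A798, 1.28 ± 0.0309 g (n = 3). By an exact two-sided permutation test p was 0.1, which is as low as 3 samples against 3 can go.

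The defining genes of the posterior silk gland were abundant in all 6 libraries, the fibroin light chain gene FIBL at 19575 FPKM or more and P25 at 3763 or more. No sericin gene was matched by name. The FPKM of the 6 libraries summed to between 502510 and 580789, and their depth is unknown. Ribosomal RNA models took a share of the FPKM that ran from 5.05% (XH replicate 3) to 19.6% (A798 replicate 3). Across features, the log2 values of a pair of libraries correlated at r = 0.9636 to 0.9703 within a strain and at r = 0.9066 to 0.9139 between the strains.

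A shift shared by most genes sets how the comparison reads. Genes were compared as log2(FPKM + 1), a scale that understates the changes of low genes, both as deposited and after the 6 libraries were centred on their medians. The library medians were 0.25 higher on the log2 scale in XH than in A798, and the median change of all features was 0.21 as deposited and -0.04 after centring. As deposited, 1078 features (25.6%) were higher and 324 (7.69%) lower in XH at a limma adjusted p below 0.05. After centring 486 (11.5%) were higher and 652 (15.5%) lower. Calls in the higher direction were thus 76.9% of all calls as deposited and 42.7% after centring, and 9 features were called in opposite directions. In what follows "rose", "fell", "higher" and "lower" in XH are used for a gene that passed in that direction on both scales. That was so for 486 features higher (11.5%) and 324 lower (7.69%), of which 178 (4.22%) and 147 (3.49%) changed at least 2-fold on both. The shares of 11.5% and 7.69% are those to set beside the counts of each gene group. Among the 551 annotated features 106 (19.2%) were higher and 37 (6.72%) lower on both scales. All XH libraries lay above all A798 libraries, as deposited, for 1577 of the 4215 features (37.4%) and below them for 495 (11.7%). Log2 changes are quoted as deposited, XH minus A798, with their standard error.

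**Figure D1:**
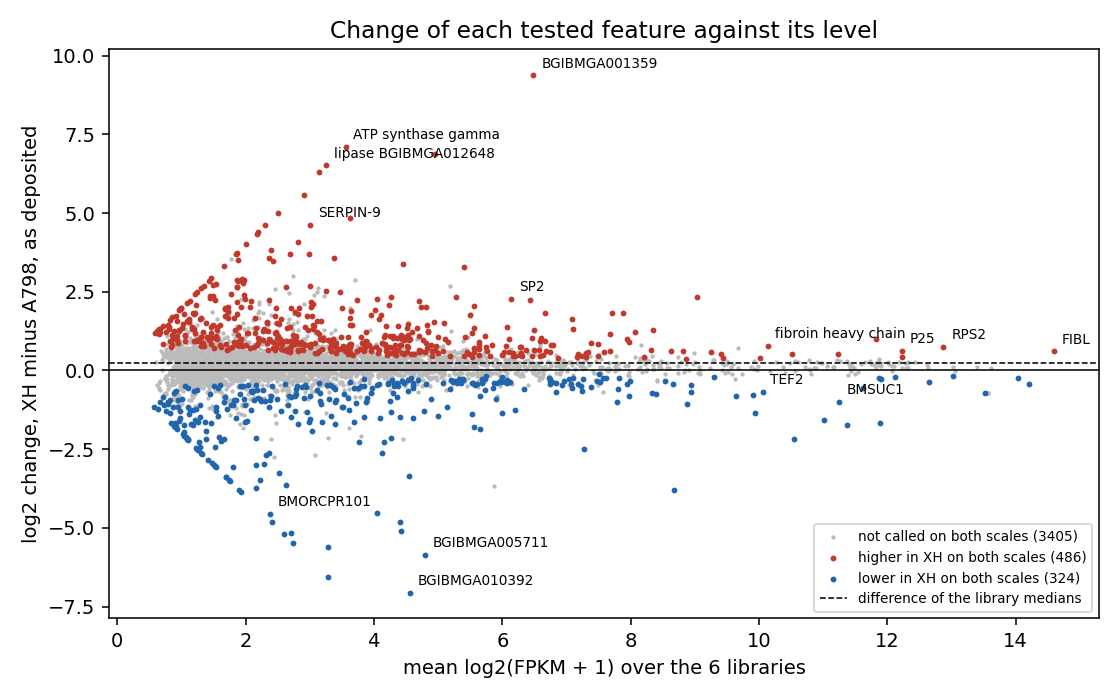
Each point is 1 of the 4215 tested features, with its mean log2(FPKM + 1) over the 6 libraries on the horizontal axis and its log2 change, XH minus A798, as deposited, on the vertical axis. Red points (486) were higher and blue points (324) lower in XH on both scales, and the dashed line marks the 0.25 by which the library medians differ.

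The genes of the fibroin complex all rose in XH. FIBL had 19988, 20757 and 19575 FPKM in the A798 libraries and 29754, 30496 and 31390 in the XH libraries. Every XH library lay above every A798 library, a 1.52-fold difference of means (log2 change 0.60 ± 0.0317, limma adjusted p = 9.28e-05). P25, the glycoprotein that holds the fibroin unit together, had 3763, 4042 and 3780 FPKM in A798 and 5818, 5897 and 6021 in XH, again without overlap (log2 change 0.61 ± 0.0352, limma adjusted p = 0.000121). The heavy chain gene (BGIBMGA005111), which encodes the repetitive protein of the filament, had 828, 841 and 893 FPKM in A798 and 1518, 1484 and 1437 in XH (1.73-fold, log2 change 0.79 ± 0.0398, limma adjusted p = 7.98e-05). Together these 3 genes took 5.28 ± 0.140% of the FPKM of all BGIBMGA genes in A798 and 7.69 ± 0.0929% in XH (SD, n = 3 each). After centring the changes of FIBL, P25 and the heavy chain were 0.35, 0.36 and 0.54.

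Ratios within a library, which no scaling of the library can move, showed whether the subunits moved in step. The ratio of light chain to P25 was 5.31, 5.13 and 5.18 in A798 and 5.11, 5.17 and 5.21 in XH. These values overlapped, with means of 5.21 ± 0.0918 and 5.17 ± 0.0499 (exact two-sided permutation p = 0.6). The heavy chain stood, in percent of the light chain's FPKM, at 4.14, 4.05 and 4.56 in A798 and 5.10, 4.87 and 4.58 in XH. The groups were separated, though A798 replicate 3 and XH replicate 3 lay side by side, and the exact two-sided p was 0.1. The share of the heavy chain transcript that its gene model spans was not tested, nor whether the model matches both strains equally.

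None of the transcription factors known for silk genes, SGF1, SGF3, MBF1 and FMBP-1, rose with the silk genes on both scales. They were listed together with the engrailed genes, ATOH8 and SCM. Of the 9 measured genes of this wider list, 0 rose, 1 fell and 8 did not pass on both scales, with a median log2 change of 0.10. The shares over all features were 11.5% higher and 7.69% lower. SGF1, the forkhead factor of the sericin and fibroin promoters, had 50.9, 53.8 and 49.4 FPKM in A798 and 48.6, 49.1 and 48.0 in XH. The XH values were all slightly below those of A798. The change was -0.08 as deposited (limma adjusted p = 0.289) and -0.33 after centring, where it was called (0.00439). SGF3, a POU factor of the sericin gene, fell from 44.0, 46.7 and 43.7 FPKM to 35.4, 36.6 and 39.1 (log2 change -0.27 ± 0.0607, limma adjusted p = 0.0203). This call was lost when A798 replicate 2, XH replicate 1 or XH replicate 2 was left out, with an adjusted p of up to 0.0655. MBF1, a coactivator, had 68.5, 59.6 and 62.1 FPKM in A798 and 89.4, 81.5 and 91.1 in XH, and was called as deposited (limma adjusted p = 0.00596) and not after centring (0.0745). FMBP-1, which binds the fibroin gene, had means of 9.97 ± 1.85 and 11.0 ± 1.24 FPKM (limma adjusted p = 0.55). The engrailed genes EN, BGIBMGA009644 and BGIBMGA009798, homeobox genes of the middle gland, varied widely within A798 (EN from 1.87 to 6.94 FPKM) and overlapped between the strains. ATOH8 and SCM also overlapped or differed by less than the threshold (limma adjusted p = 0.57 and 0.369).

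Enzymes that load transfer RNA with the amino acids of silk were higher in XH too. Of 4 measured aminoacyl-tRNA synthetase genes 3 rose and 0 fell, where 11.5% and 7.69% of all features did. For all 4 every XH library lay above every A798 library, as deposited, which held for 37.4% of all features. Glycine tRNA ligase (BGIBMGA007637) had 68.8, 69.8 and 66.8 FPKM in A798 and 133, 130 and 133 in XH. This 1.93-fold difference (log2 change 0.94 ± 0.0395, limma adjusted p = 3.86e-05) was far outside the spread within either strain. Alanine tRNA ligase (BGIBMGA006216) had 41.5, 43.4 and 41.7 FPKM in A798 and 75.0, 75.5 and 75.2 in XH (1.78-fold, limma adjusted p = 9.38e-05). Glycine and alanine are the residues of which the heavy chain is mostly built. Lysine tRNA ligase (BMO.457) rose 1.49-fold. FRSB, the beta subunit of the phenylalanine enzyme, changed by 0.30, close to the shift of the library medians, and was not called after centring (limma adjusted p = 0.587).

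Several ribosome assembly genes rose, while most ribosomal protein genes stayed near the median of all genes. On the ribosome biogenesis list, 4 of 10 rose and 1 fell, where 11.5% and 7.69% of all features did. Its median log2 change was 0.49, against 0.21 for all features. The gene for nucleolar protein family A member 2 (BGIBMGA000029), a component of the particles that pseudouridylate ribosomal RNA, had 18.6, 11.7 and 15.3 FPKM in A798 and 33.2, 37.4 and 36.8 in XH. The strains were far apart, a 2.36-fold difference (limma adjusted p = 0.00311). Nucleoplasmin (BGIBMGA002309), a histone chaperone matched to this list, rose 1.98-fold and KRR1 (BMO.4240), of the small subunit processome, 1.97-fold. Midasin (BMO.6026), the giant ATPase that matures the large subunit, rose from 1.26, 1.27 and 1.29 to 2.80, 3.10 and 3.18 FPKM. The 1 gene that fell, RPA43_N, encodes a domain of an RNA polymerase I subunit, and went from 17.6, 13.5 and 15.6 to 9.42, 6.71 and 7.76 FPKM (limma adjusted p = 0.00704).

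Of 42 cytosolic ribosomal protein genes 2 rose and 2 fell. Their median log2 change was 0.19, against 0.21 for all features. As deposited 25 of the 42 were called higher, a larger part than the 25.6% of all features, and 2 lower, where 7.69% of all features were. After centring 2 of the 42 were called higher, where 11.5% of all features were, and 14 lower, a larger part than the 15.5% of all features. The group took 28.4 ± 0.104% of gene FPKM in A798 and 30.6 ± 0.170% in XH. RPS2 stood out with 5679, 5913 and 5738 FPKM in A798 and 9735, 9611 and 9887 in XH (1.69-fold, log2 change 0.75 ± 0.0248, limma adjusted p = 1.17e-05). RPL13 rose 1.42-fold. RPS26 fell from 7174, 7307 and 7218 FPKM to 5653, 5588 and 5744, and RPS20 from a mean of 4090 ± 24.6 to 3451 ± 15.8 FPKM. Ribosomal protein genes have many near-identical pseudogenes in animals, and how the counting split such reads is not given in the sources used here. Several of them show how the call depends on the scale. RPL17, RPL9, RPS14 and the S3a gene BGIBMGA011416 were called higher as deposited, by 0.12 to 0.16, and lower after centring.

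Of 19 translation factors 2 were higher, 2 lower and 15 not called on both scales, a share near that of all features (11.5% higher and 7.69% lower). Their median log2 change was 0.16. TEF2, elongation factor 2, which moves the ribosome along the message, had 1388, 1513 and 1157 FPKM in A798 and 835, 763 and 938 in XH. It fell, every XH library lying below every A798 library (log2 change -0.67, limma adjusted p = 0.00852). EF-1G, the gamma subunit of elongation factor 1, fell from 4771 ± 102 to 4130 ± 57.5 FPKM. The initiation factor gene BGIBMGA001437 (eIF2 beta subunit) rose 1.57-fold, and BGIBMGA000903, of the eIF3 complex, rose 1.39-fold, a call that was lost whichever library was left out (centred adjusted p up to 0.0925). The group took 2.75 ± 0.0633% of gene FPKM in A798 and 2.52 ± 0.0384% in XH.

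**Figure D2:**
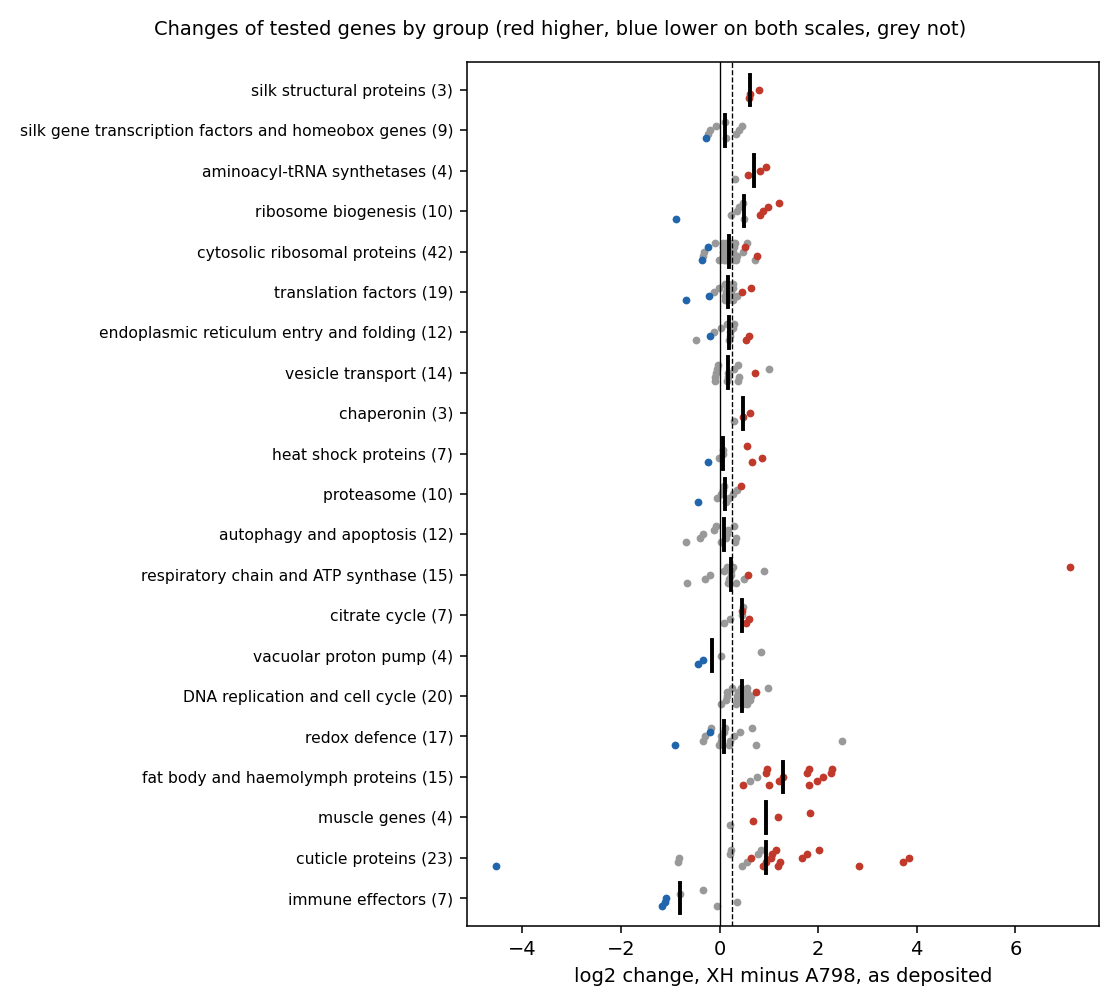
Log2 change, XH minus A798, as deposited, of the tested genes of 21 groups, with the number tested in brackets. Points are genes, red or blue where called higher or lower in XH on both scales, black bars are group medians, and the dashed line marks the 0.25 shift of the library medians. The fat body group lies wholly to the right of that line, and the ribosomal proteins crowd around it.

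Genes of the secretory route were mostly near the shared shift. Of 12 genes for entry into the endoplasmic reticulum and folding there, 2 rose, 1 fell and 9 did not pass on both scales. Among all features 11.5% rose and 7.69% fell. A signal sequence receptor gene (BGIBMGA011599), part of the translocon, had 574, 566 and 550 FPKM in A798 and 797, 811 and 846 in XH (1.45-fold, limma adjusted p = 0.000217). DDRGK domain-containing protein 1 (BGIBMGA011004), an anchor of protein modification at the endoplasmic reticulum, rose 1.52-fold. The Sec61 channel subunits, by contrast, changed by 0.22 to 0.29 and none was called after centring. Their levels are among the highest of this group, SEC61ALPHA at 1415 ± 40.3 FPKM in A798 and 1700 ± 42.8 in XH. The gene that fell, BGIBMGA003367 (stromal cell-derived factor 2), changed by -0.19, and its call was lost whichever library was left out (adjusted p up to 0.11). Of 14 vesicle transport genes only YIPF6, of the Golgi, rose (1.69-fold), and the call was lost without A798 replicate 1 or 2 or XH replicate 1 or 2 (centred adjusted p up to 0.0658).

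Some cytosolic chaperones rose. Of 7 heat shock genes 3 rose and 1 fell, and of 3 chaperonin genes 2 rose, where 11.5% of all features rose and 7.69% fell. HSP90 had 258, 258 and 247 FPKM in A798 and 395, 399 and 410 in XH (1.58-fold, log2 change 0.66 ± 0.0347, limma adjusted p = 9.38e-05). The chaperonin subunits, which fold actin and tubulin, rose 1.55-fold (alpha, BGIBMGA006263) and 1.40-fold (zeta, BGIBMGA013116). The small heat shock gene BGIBMGA005781 went from 12.4 ± 0.967 to 23.2 ± 2.46 FPKM, while HSP20.4 went the other way, from 149 ± 9.23 to 126 ± 4.75. The calls of HSP20.4 and HSP70-14 each depended on single libraries. HSP20.4 was lost without A798 replicate 1 or XH replicate 2 or 3 (adjusted p up to 0.0787), and HSP70-14 without any library other than XH replicate 2 (centred adjusted p up to 0.124). Of 9 DnaJ genes 1, DNAJ-10, rose, and its call was lost whichever library was left out (centred adjusted p up to 0.126).

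Few genes of the degradation systems were called. Of 10 proteasome genes 1 rose and 1 fell, a share near that of all features (11.5% higher and 7.69% lower), and of 15 ubiquitin conjugation genes and 12 genes of autophagy and apoptosis 0 passed in either direction on both scales. A beta subunit of the proteasome core (BGIBMGA003009) fell from 166, 170 and 167 FPKM to 119, 130 and 125 (1.35-fold, limma adjusted p = 0.00119). The regulatory subunit gene BGIBMGA005560 rose 1.37-fold, a call lost without any library other than XH replicate 2 (centred adjusted p up to 0.135). ATG8, the lipid-anchored protein of autophagosomes and the most abundant gene of its group, had 3147, 2828 and 3083 FPKM in A798 and 2739, 2710 and 2896 in XH. The ranges overlapped. The change was -0.12 as deposited (limma adjusted p = 0.127) and -0.37 after centring, where it was called (0.00437).

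A mitochondrial gene was listed at 0 in every library but those of XH. The ATP synthase gamma subunit gene (BGIBMGA013965), the rotor shaft of the mitochondrial enzyme, had 146, 133 and 134 FPKM in XH and was listed at 0 in every A798 library. It was also listed at 0 in all 3 A306 libraries. Other subunits of the same enzyme did not show this. The alpha subunit (BGIBMGA001853) had 663, 702 and 657 FPKM in A798 and 787, 777 and 795 in XH, and a beta subunit (BGIBMGA012549) had 461, 464 and 468 in A798 and 560, 551 and 564 in XH. Both changed by about as much as the library medians and neither was called after centring. A value of 0 can be a failed estimate, since 6 ribosomal protein genes were listed at 0 in all 6 libraries, so no fold is given. Of 15 genes of the respiratory chain and ATP synthase, 2 rose and 0 fell, where 11.5% and 7.69% of all features did. The share that rose was near that of all features. These genes were the gamma subunit gene, which passed the filter through XH alone, and UQCRC2 of complex III (1.51-fold, limma adjusted p = 0.000461).

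Carbon metabolism held changes in both directions. Of 7 citrate cycle genes 3 rose and 0 fell, where 11.5% and 7.69% of all features did. Citrate synthase (BGIBMGA014294) rose 1.53-fold, an NADP isocitrate dehydrogenase (BGIBMGA007586) 1.46-fold and DLDH, dihydrolipoyl dehydrogenase, 1.37-fold. All 3 calls were lost without XH replicate 1, and the count went from 0 to 4 over the fits that left out 1 library. Glucose-6-phosphate dehydrogenase (BGIBMGA005966), the entry to the pentose phosphate path and its NADPH, had 12.5, 11.4 and 11.3 FPKM in A798 and 32.2, 34.6 and 31.4 in XH. The difference was 2.80-fold without overlap (log2 change 1.41 ± 0.0732, limma adjusted p = 9.12e-05). Fructose-1,6-bisphosphatase (BGIBMGA001399), of gluconeogenesis, rose 2.01-fold. Of the 15 sugar genes 2 rose and 2 fell, where 11.5% and 7.69% of all features did. GAL, a beta-galactosidase, fell from 9.64, 12.08 and 11.98 to 3.11, 4.71 and 4.03 FPKM, and SDH2B, a sorbitol dehydrogenase, from 2.32 ± 0.252 to 0.0200 ± 0.0346 FPKM. SDH2B was below 1 FPKM in every XH library and passed the filter through A798 alone. BMGAPDH, the glycolytic enzyme, had 1158, 1181 and 1156 FPKM in A798 and 1143, 1128 and 1155 in XH, with a change of -0.03 as deposited (limma adjusted p = 0.425).

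BMSUC1, a beta-fructofuranosidase that splits sucrose, was the most abundant of the annotated genes that fell at least 1.5-fold. It had 3445, 3456 and 3351 FPKM in A798 and 1709, 1727 and 1738 in XH. The values within a strain lay within a few percent of each other, and the log2 change was -0.99 ± 0.0239 (limma adjusted p = 3.88e-06). A306 had 1170 ± 9.10 FPKM, so that the order of the 3 strains was A798, XH, A306, the order of gland weight.

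Of 4 measured subunits of the vacuolar proton pump, which acidifies compartments and the gland lumen, 2 fell and 0 rose. The shares over all features were 7.69% lower and 11.5% higher. Subunit G (BGIBMGA013678) went from 465, 475 and 466 FPKM to 338, 365 and 333, a 1.36-fold difference without overlap (limma adjusted p = 0.00104). Subunit F (BGIBMGA008011) fell 1.27-fold. Subunit B (BGIBMGA002241), of the catalytic head, had 121, 137 and 124 FPKM in A798 and 129, 132 and 130 in XH, which overlapped. It was called in the lower direction only after centring. The remaining subunit had the largest change of the group, 0.83 as deposited, but its libraries overlapped and it was called on neither scale.

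Most tested genes for blood proteins made by the fat body rose. Of 20 listed genes, 15 were tested, of which 13 rose and 0 fell, where 11.5% and 7.69% of all features did. For all 15 every XH library lay above every A798 library, as deposited, which held for 37.4% of all features. Their median log2 change was 1.29, though genes high only in XH can reach the list through XH alone. With 1 library left out, between 10 and 12 were called. SP2, a storage hexamerin taken up before pupation, had 32.3, 31.4 and 28.9 FPKM in A798 and 154, 152 and 156 in XH (4.98-fold, log2 change 2.28 ± 0.0545, limma adjusted p = 3.81e-06). The lipoprotein gene LP-C19 had 122, 129 and 122 FPKM in A798 and 425, 444 and 449 in XH, and BMO.682, also of the 30K family, had 172, 178 and 171 in A798 and 357, 334 and 350 in XH. The 30K genes share sequence, and their reads may be split between them. The promoting protein gene PP rose from 3.83, 4.24 and 6.36 to 23.1, 19.3 and 22.2 FPKM. In bulk tissue, more cells of a type and more of its RNA per cell cannot be told apart.

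The members of this group did not rise alike. SP1, a storage protein known for its bias to female larvae, had 57.95, 65.2 and 57.6 FPKM in A798 and 81.8, 83.5 and 86.0 in XH. It rose only 1.39-fold, and the call was lost without any library other than A798 replicate 2 (centred adjusted p up to 0.103). SP1 FPKM per SP2 FPKM was 1.79, 2.08 and 1.99 in A798 and 0.531, 0.550 and 0.553 in XH, far apart (exact two-sided permutation p = 0.1, the smallest possible). SP3 per SP2 moved far less, from 1.25 ± 0.0108 to 1.21 ± 0.00199. Vitellogenin (VG), the yolk protein of the pupal female fat body, was at most 0.01 FPKM in every library. The summed FPKM of all 20 genes of the group in the table was 636 to 652 in A798, 1843 to 1933 in XH and 72.1 to 79.5 in A306.

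**Figure D3:**
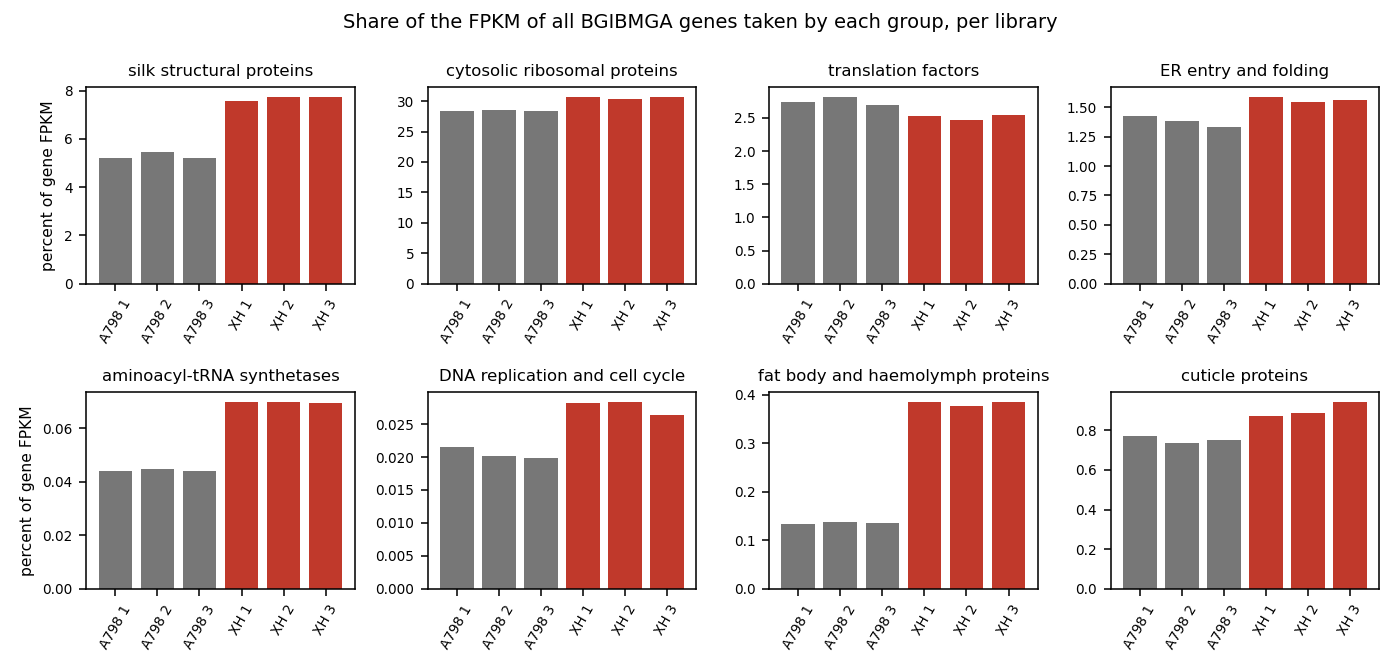
Bars give the percentage of the FPKM of all BGIBMGA genes taken by the tested members of 8 groups in each library, grey for A798 and red for XH, each panel with its own axis from 0. Silk structural proteins went from 5.28% to 7.69% and fat body and haemolymph proteins from 0.136% to 0.382%, while translation factors went from 2.75% to 2.52%.

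Some markers of haemocytes and muscle rose too, most of them at low levels, and others did not. Of the haemocyte genes both prophenoloxidases rose, PRO-PO2 from 0.630, 0.660 and 0.810 to 3.51, 3.41 and 3.97 FPKM (limma adjusted p = 0.000603) and PPO1 from 1.38 ± 0.223 to 3.01 ± 0.273, the latter a call lost whichever library was left out (centred adjusted p up to 0.108). Haemocytin (BGIBMGA006692), a defining haemocyte gene, had 0.340, 0.640 and 0 FPKM in A798 and 0, 0.0100 and 0.340 in XH. The summed haemocyte FPKM was 2.02 to 2.60 in A798 and 6.48 to 7.03 in XH. Of 4 tested muscle genes 3 rose, where 11.5% of all features did. The myosin gene MLC-2, muscular protein 20 (BGIBMGA001201) and PRO-PO2 were below 1 FPKM in every A798 library. They passed the filter through XH alone, so these counts describe the tested genes only. Muscle actin A1 had 39.0, 40.7 and 35.0 FPKM in A798 and 59.0, 63.2 and 63.9 in XH, and myosin light chain MLC-2 went from 0.243 ± 0.235 to 3.41 ± 0.777. Troponin C (BGIBMGA008861) was below 1 FPKM in all 6 libraries, and tropomyosin (BGIBMGA001587) was at 0.160 to 0.520 in A798 and 0.810 to 1.86 in XH. The summed muscle FPKM was 39.2 to 44.9 in A798 and 70.6 to 75.2 in XH. The part of these tissues in the changes of the gland was not tested.

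Cuticle protein genes, expressed in epidermis, tracheae and the lining of ducts, rose in part. Only 23 of the 179 in the table passed the filter and 99 were at 0 in all 6 libraries. Of the 23, 14 rose, 1 fell and 8 did not pass, where 11.5% of all features rose and 7.69% fell. A gene high in XH alone can enter through that strain, so the count describes the tested genes and is no measure of the list. With 1 library left out, 10 to 12 rose. BMWCP11 had 134, 143 and 134 FPKM in A798 and 295, 290 and 331 in XH, and BMORCPR42 had 57.7, 59.6 and 63.5 in A798 and 130, 115 and 132 in XH. Neither pair of ranges overlapped. The most abundant of the list, BGIBMGA005303, had 3180 ± 78.1 FPKM in A798 and 3681 ± 241 in XH, changed by 0.21 and was not called after centring. BMORCPG17 had 0, 1.75 and 0 FPKM in A798 and 26.1, 23.6 and 10.9 in XH, and BMORCPH21 had 1.93, 0.910 and 0 in A798 and 24.7, 25.1 and 17.9 in XH. BMORCPR101 did the reverse, with 23.7, 26.1 and 22.6 FPKM in A798 and 0.240, 0 and 0 in XH (log2 change -4.54 ± 0.134, limma adjusted p = 7.59e-06). In A306 it was at most 0.250 FPKM.

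Midgut and nerve markers gave few values. Of 3 tested midgut genes 0 rose and 1 fell, where 11.5% and 7.69% of all features did. The gene that fell, an alkaline phosphatase (BGIBMGA009866), changed 3.15-fold. The trypsin-like gene BMO.6705 was at 0 in all 6 libraries. Of 2 tested nerve genes NPLP4, annotated as a neuropeptide-like precursor, fell 1.89-fold. The other, BGIBMGA011769, also annotated as a neuropeptide-like gene, had 0, 10.6 and 0 FPKM in A798 and 11.6, 8.75 and 18.9 in XH, which overlapped (log2 change 2.58, limma adjusted p = 0.103). Synaptotagmin (SYTI) was at most 0.200 FPKM in each.

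Some protease inhibitor genes rose and some immune peptide genes fell. Of 6 tested protease inhibitor genes 3 rose and 0 fell, where 11.5% and 7.69% of all features did. SERPIN-9 and SERPIN-7 were below 1 FPKM in every A798 library and passed the filter through XH alone. The count therefore describes the tested genes only. SERPIN-9, annotated as an antichymotrypsin, had 0.910, 0.650 and 0.350 FPKM in A798 and 39.3, 37.5 and 39.2 in XH. This was the highest fold change, 60.7, of an annotated gene not listed at 0 in a whole strain with at least 5 FPKM in XH (log2 change 4.61 ± 0.144, limma adjusted p = 9.8e-06). In A306 it stood at 0.943 ± 0.182 FPKM. The other inhibitors that rose, the Kazal gene BGIBMGA011573 and SERPIN-7, reached at most 7.16 and 1.55 FPKM in XH, and their calls were lost in 4 and all 6 of the fits that left out 1 library (centred adjusted p up to 0.101 and 0.0905). Of 7 immune effector genes 3 fell and 0 rose, where 7.69% and 11.5% of all features did. The antibacterial peptide genes GLV3 and BGLOV2 (gloverins) and LEB1/2 (lebocin) had means of 3.48 to 4.83 FPKM in A798 and 0.927 to 1.78 in XH, and all 3 calls held whichever library was left out. PGRP-S1, a sensor of bacterial walls, had 20.1, 19.8 and 15.8 FPKM in A798 and 18.2, 18.0 and 17.2 in XH, which overlapped.

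Of 2 tested ecdysone genes 1 rose, and of 2 tested juvenile hormone genes 2 rose, where 11.5% of all features did. None of these genes fell, where 7.69% of all features did. A small ecdysteroid-regulated protein gene (BGIBMGA008405) had 187, 180 and 157 FPKM in A798 and 421, 404 and 400 in XH (2.34-fold, log2 change 1.23 ± 0.0716, limma adjusted p = 0.000132). Ecdysone oxidase (BGIBMGA000158), which inactivates the moulting hormone, stood at 2216 ± 77.5 and 2371 ± 48.3 FPKM. It was not called as deposited (limma adjusted p = 0.0767) and was called in the lower direction after centring. The juvenile hormone binding protein gene AN0895 had 5.33, 7.06 and 7.37 FPKM in A798 and 34.0, 36.3 and 35.8 in XH. The blood carrier HJHBP was at 0.463 ± 0.253 and 2.74 ± 1.04 FPKM, a call lost without any library other than XH replicate 2 (centred adjusted p up to 0.092). HJHBP was below 1 FPKM in every A798 library and passed the filter through XH alone. Of 2 measured genes of insulin and TOR signalling 0 were called. P70S6K (BGIBMGA006807), the kinase that couples TOR to translation, had 2.10, 1.66 and 1.68 FPKM in A798 and 3.16, 4.28 and 2.50 in XH (limma adjusted p = 0.0534 as deposited and 0.234 after centring).

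Most genes of DNA replication did not pass on both scales. The median change of the 20 measured members was 0.45 as deposited, against 0.21 for all features, and the range began at 0.03. As deposited 10 were called higher, where 25.6% of all features were. On both scales, where 11.5% of all features rose and 7.69% fell, 1 of the 20 rose and 0 fell. That gene, BMRNRS, the small subunit of ribonucleotide reductase, had 15.1, 15.7 and 11.1 FPKM in A798 and 24.5, 22.2 and 24.0 in XH (limma adjusted p = 0.0109), and its call was lost without A798 replicate 1 or any XH library (centred adjusted p up to 0.105). PCNA, the sliding clamp, had 6.06, 9.73 and 5.87 FPKM in A798 and 12.1, 10.4 and 3.84 in XH, which overlapped. The group took 0.0205 ± 0.000877% of gene FPKM in A798 and 0.0277 ± 0.00112% in XH.

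Among chromatin genes the annotated DNA supercoiling factor (BGIBMGA001107), a protein that with topoisomerase puts supercoils into DNA, had 50.9, 53.4 and 53.4 FPKM in A798 and 190, 191 and 191 in XH. The 3.63-fold difference (log2 change 1.84 ± 0.0396, limma adjusted p = 2.74e-06) was large against the spread within either strain. It was also high in A306, at 171 ± 8.82 FPKM. The histone H3 gene BGIBMGA005550 rose 1.28-fold, a call lost whichever library was left out (centred adjusted p up to 0.0905). H4-L, a histone H4 gene, had 8.06, 2.60 and 1.10 FPKM in A798 and 0 in all 3 XH libraries, with an adjusted p of up to 0.0819 when A798 replicate 2 or any XH library was left out.

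Of 17 genes of redox defence 0 rose and 2 fell, where 11.5% and 7.69% of all features did. BMDJ-1BETA, a DJ-1 family protein that protects against oxidative stress, had 76.5, 88.1 and 79.2 FPKM in A798 and 43.7, 43.9 and 40.9 in XH (1.90-fold, limma adjusted p = 0.000366). The peroxiredoxin JAFRAC1 went from 673 ± 45.1 to 583 ± 3.54 FPKM, a call lost without A798 replicate 1 or any XH library (adjusted p up to 0.0854). Sulfiredoxin (BGIBMGA007947) varied widely in both strains, with 4.22, 5.33 and 0.510 FPKM in A798 and 22.9, 10.1 and 31.7 in XH, and was called as deposited (limma adjusted p = 0.0336) and not after centring (0.0527).

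Enzymes acting on lipids and esters gave some wide contrasts. Only 3 of the 17 lipases in the table were tested, of which 2 rose and 1 fell, where 11.5% and 7.69% of all features did. BGIBMGA012648 passed the filter through XH alone, so the count describes the tested genes only. The lipase BGIBMGA012648 had 85.1, 90.7 and 96.5 FPKM in XH and was listed at 0 in every A798 library, with 19.1, 27.6 and 29.2 in A306. Another lipase, BGIBMGA014574, had 7.69, 7.64 and 7.43 FPKM in A798 and 41.3, 43.3 and 42.2 in XH (5.57-fold, limma adjusted p = 4.75e-06), and 0.527 ± 0.181 in A306. Acid lipase-1 (BGIBMGA005695) went from 4.33 ± 0.637 to 2.82 ± 0.0757 FPKM (log2 change -0.47, limma adjusted p = 0.0357), a call lost without any library other than A798 replicate 1 (adjusted p up to 0.101). AE13, a carboxylesterase, had 14.8, 13.8 and 15.1 FPKM in A798 and 0.380, 0.600 and 0.230 in XH (log2 change -3.48 ± 0.135, limma adjusted p = 2.76e-05). A306 resembled A798 here, at 14.4 ± 0.573 FPKM. An inorganic phosphate co-transporter gene (BGIBMGA014105) had 12.5, 23.5 and 8.21 FPKM in A798 and was listed at 0 in all 3 XH libraries, and it had 12.2 to 25.3 in A306.

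**Figure D4:**
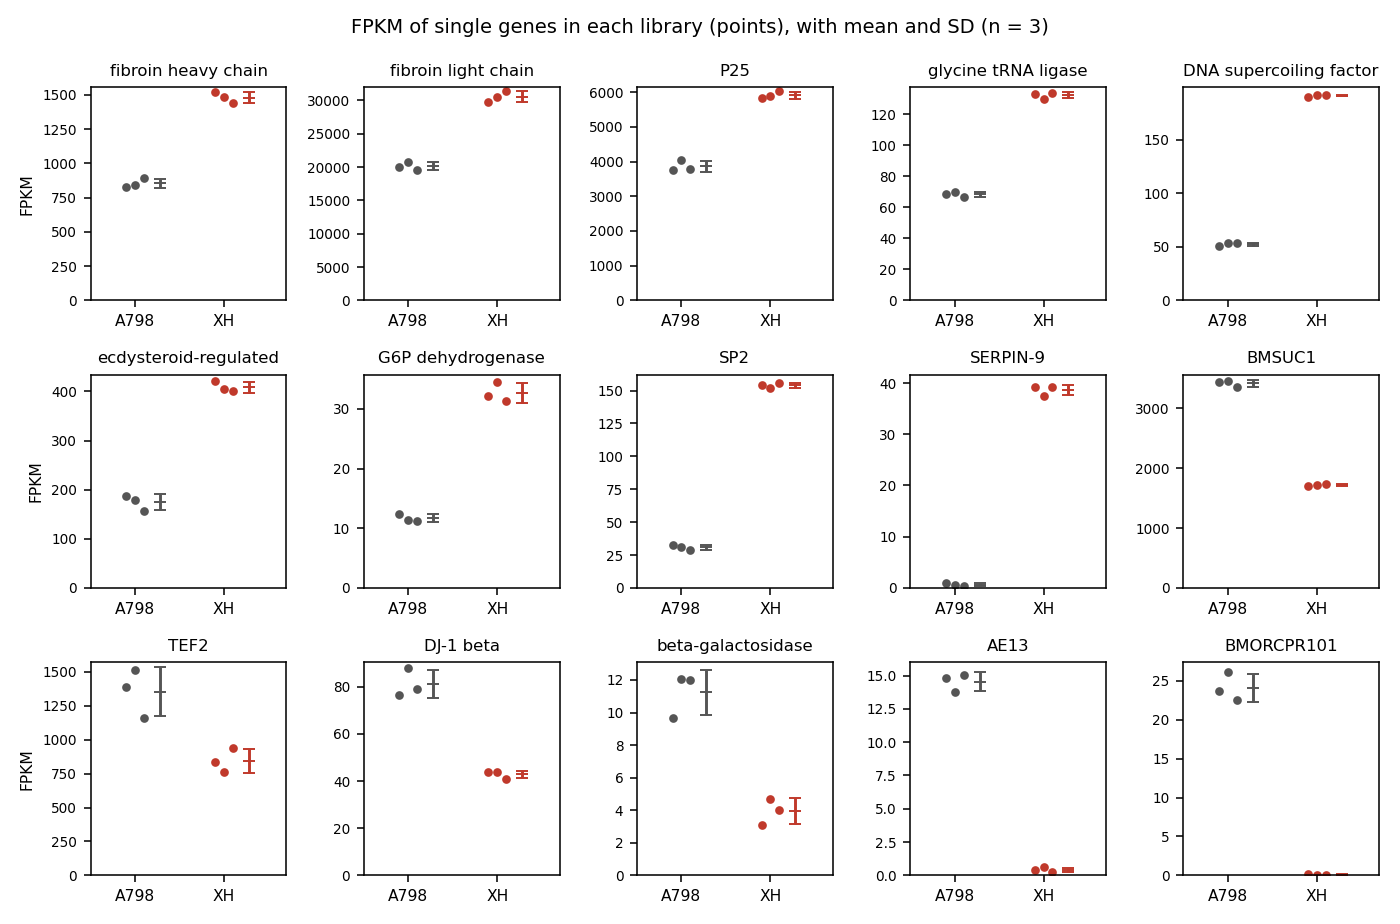
FPKM of 15 genes in each A798 library (grey) and XH library (red), with mean and SD beside the points (n = 3 each) and every vertical axis starting at 0. In none of the panels do the points of the strains overlap, and the lower panels from TEF2 to BMORCPR101 show genes that fell, as does BMSUC1.

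The authors deposited 5 genes apart, with annotation of their own and for a reason not stated, and their FPKM there equal those of the main table. BMSUC1 is one of them. The gene annotated as a glucose dehydrogenase (BGIBMGA005711), an oxidoreductase, had 227, 208 and 199 FPKM in A798 and 2.69, 2.86 and 2.35 in XH. This 80.3-fold difference (log2 change -5.87 ± 0.0837, limma adjusted p = 9.96e-07) separated A798 from both other strains, as A306 had 0.610 ± 0.0700. An odorant binding protein gene (BGIBMGA002629) had 681, 663 and 696 FPKM in A798 and 317, 301 and 348 in XH, and 433 ± 18.4 in A306. Alkylglycerol monooxygenase (BGIBMGA002524), which cleaves ether lipids, had 17.4, 18.3 and 18.1 FPKM in A798 and 6.03, 6.34 and 8.73 in XH, and 0.243 ± 0.166 in A306. The gene BGIBMGA010889, annotated as a zonadhesin with trypsin inhibitor-like domains, rose from 14.97, 12.4 and 10.6 FPKM to 137, 126 and 132, against 8.72 ± 0.903 in A306. All 5 were separated between A798 and XH, 4 lower and 1 higher in XH. As deposited, 11.7% of all features lay wholly lower and 37.4% wholly higher in XH.

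Genes without a description changed as well. BGIBMGA001359 had 5.76, 0 and 5.2 FPKM in A798 and 2275, 2551 and 2118 in XH, and BGIBMGA001360 had 1.93, 1.16 and 2.67 in A798 and 348, 330 and 333 in XH. Both were low in A306, at no more than 27.3 and 4.63 FPKM. In the other direction BGIBMGA010392 had 282, 271 and 264 FPKM in A798 and 1.07, 0.680 and 1.49 in XH, and 597 ± 21.8 in A306. Among all tested features 28 were listed at 0 in every A798 library and 31 in every XH library.

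Set beside A306, the rises in XH fell into different orders of the strains. A798 libraries are the reference of both comparisons, so the values are given without a test. The heavy chain was at 268 ± 5.81 FPKM in A306, below both other strains, while FIBL was at 23739 ± 171, between them. Glycine tRNA ligase stood at 128 ± 6.17 FPKM in A306 and the ecdysteroid-regulated gene BGIBMGA008405 at 373 ± 6.79, both near XH. The blood protein genes were lowest in A306, SP2 at 4.05 ± 1.07 FPKM and LP at 11.1 ± 1.78, so that A798 lay between A306 and XH.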

How the data were processed

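The labels describe RNA-seq of silk glands, with samples grouped by the strain given there. The authors deposited FPKM per feature, to 2 decimals. Tools listed in the submitters' processing notes are DESeq2 1.24.0, StringTie 1.3.3b and fastp 0.19.5. No aligner, genome build or annotation version is given in the sources used here. Since FPKM are relative to the mapped total, 1 dominant feature lowers all others, and depth stays unknown. The authors' columns of strain means (3 per table) were not used.

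The filter kept features reaching 1 FPKM in 3 or more of the 6 XH and A798 libraries. limma 3.58.1 (R 4.3.3) was fitted to log2(FPKM + 1) with a variance trend, and two-sided p-values were adjusted by Benjamini-Hochberg over all 4215, with calls at an adjusted p below 0.05. The fit was repeated after subtracting each library's median. The procedure was tested on simulated data. Single ratios and weights were compared by exact permutation tests. Alternatives were other pseudocounts (0.1 and 5), filters, scalings, a fit to all 9 libraries, no variance trend, a replicate block, and leaving out each library.

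The members and gene lists were chosen with earlier results of these data known. Lists were matched by symbol and by words of the description. Genes named were drawn from a selection, of which not every member is quoted. It held all measured silk and silk factor genes and up to 4 called members per list. The 10 highest and 10 lowest annotated changes with a mean of at least 5 FPKM and no overlap were included. So were the 10 most abundant genes, up to 4 genes each way listed at 0 in a strain and up to 5 called in opposite directions. The extremes without annotation and the 5 genes deposited apart completed the selection. Markers below the filter, and list members set beside a named gene for contrast, were chosen after their values were seen. The RefSeq gene table held 0 of the identifiers, so no positions or sequences are given.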

Additional observations from a re-analysis of the deposited data

How the results depend on the processing

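The count of features higher in XH as deposited, 1078, was 548 under TMM scaling, 561 under quantile normalization and 701 with the replicate block. It ranged from 712 to 870 with 1 library left out, with the lowest count without XH replicate 3. The count lower, 324, was 598 under TMM scaling and 529 under quantile normalization, and ranged from 259 to 273 with 1 library left out. After centring the counts of 486 higher and 652 lower ranged from 331 to 399 and from 491 to 529, and on both scales 324 lower ranged from 258 to 273. The other alternatives moved these counts by less than 1.5 times. The labels do not say that libraries with the same number pair. Their deviations correlated at 0.0181, 0.0469 and -0.0227, and those of libraries with different numbers at -0.0704 to 0.0533. Whether libraries with the same number shared a batch was not tested.

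Median centring turned small increases of abundant genes into decreases: CYPA to -0.13, BGIBMGA011416 to -0.13, EF1BETA to -0.12, RPL17 to -0.12, RPL9 to -0.10 and RPS14 to -0.089. TMM scaling did so for BGIBMGA011416 (-0.12), EF1BETA (-0.11), RPL17 (-0.11) and RPS14 (-0.080). Of 92 genes of the selection for naming that were called on both scales, 67 were called whichever library was left out. The other 25 were lost in at least 1 such fit. The heavy to light chain difference of 0.596 percentage points ranged from 0.469 to 0.7496. The difference in the share of ribosomal RNA models, -4.03 percentage points, ranged from -7.10 to -0.43, the last without A798 replicate 3, and that of the 20 most abundant features, -3.69, from -5.87 to -1.13. Depth is unknown, so no counting error can be given for low values.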
